A study of Bos taurus with 14 samples.

Results

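The microRNAs (miRNA) bta-miR-103 and bta-miR-107 (miR-103 and miR-107 from here on) are closely related, and their reads were followed in small extracellular vesicles (sEVs) from the milk of 14 Holstein cows with subclinical mastitis. Every line of the deposited count table named miR-103 or miR-107 was taken, whatever its precursor. This gave 3 of the 350 miRNA/precursor pairs, which stand for 2 of the 268 mature names: miR-103/mir-103-1, miR-103/mir-103-2 and miR-107/mir-107. All cows had subclinical mastitis, defined by a positive or weakly positive California mastitis test without signs in the udder, and all ate the same total mixed ration. The 7 cows of the control group received no supplement, and the 7 cows of the inulin group received 300 g/d of inulin, a plant fibre used as a prebiotic, for 5 wk after 1 wk of adaptation. Each library is the milk of 1 cow from the last day of the trial. The spread within a group thus holds the differences between animals together with those of library preparation and counting. Milk sEVs come from several cell types of the udder, and a lower level of a miRNA cannot be told apart from fewer vesicles of the cells that make it.

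A miRNA guides a silencing complex to messenger RNAs that pair with its seed, the bases near its 5′ end. MiR-103 and miR-107 have the same seed and almost the same mature sequence, with the difference near the 3′ end. They are grouped with miR-15 and miR-16, which carry a shifted version of that seed. Their genes lie in PANK genes, which encode pantothenate kinases, the enzymes of the first step of coenzyme A synthesis. Coenzyme A carries acyl groups in fatty acid synthesis and oxidation. Both miRNA are known to repress Dicer, the enzyme that cuts miRNA precursors, and caveolin-1, a membrane protein of fat cells that takes part in insulin signalling. In mammary epithelial cells of goats, miR-103 has been linked to milk fat synthesis.

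All 3 precursors matched by name a gene of RefSeq on the assembly ARS-UCD2.0, in which mir-103-1 lies within PANK3, mir-103-2 within PANK2 and mir-107 within PANK1. The table lists 23 nt for mature miR-103 and 22 nt for mature miR-107. The 2 miR-103 pairs had equal counts in 13 of the 14 cows, since the mature miRNA of both precursors is the same. In inulin cow 6 they had 95 and 88 counts. They were therefore taken as 1 measurement, with mir-103-1 standing for miR-103. A read too short to reach the differing bases fits miR-103 as well as miR-107, and how such reads were assigned is not given in the sources used here. The split between miR-103 and miR-107 is uncertain to that extent.

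The total miRNA count of a cow ranged from 4165 to 415020, so that the deepest library had 99.6 times the counts of the shallowest. The total sums all miRNA/precursor pairs, so that a miRNA with several precursors enters it more than once. Let-7a-5p, for example, enters with 3 precursors at nearly the same level. Levels are given as counts per 1000000 of this total (CPM), and 3 counts were taken as the smallest detectable number. Intervals for a share are 95% Wilson intervals, which, like the limit of 3 counts, cover counting error only. The let-7 pairs, with such repeats included, held between 41.1% and 91.2% of the counts of a cow. Their mean share was 69.0% ± 18.2 in control cows and 80.0% ± 11.9 in inulin cows (SD, n = 7 each), a difference that was not tested. The level of every other miRNA is relative to the let-7 pairs. Of the markers for cell types that milk could hold, the 8 mammary epithelial miRNA were all present, with miR-200c, miR-375 and miR-141 in all 14 cows. MiR-148a was found in 9 cows, miR-182 and miR-200b in 8 each, miR-200a in 7 and miR-429 in 6. The summed level of the 8 ranged from 3601 to 15626 CPM in the control group and from 6019 to 10557 CPM in the inulin group. MiR-200c alone had means of 5308 and 5341 CPM, beside means of the sum of 7152 and 8283 CPM, respectively. The 6 leukocyte miRNA analysed summed to between 0 and 860 CPM in the control group and between 45.4 and 486 CPM in the inulin group. Of these, miR-155 was found in 13 cows, miR-223 in 7, miR-142-3p in 6, and miR-142-5p, miR-146b and miR-150 in 2 each. Of the 5 tested, miR-142-5p was called lower with inulin by the rule given with the diet comparison (edgeR, unadjusted p = 0.00567, adjusted p = 0.274). It had 32 counts in 2 control cows and 0 in inulin cows. Over all 210 tested pairs, 6.19% were called lower. The red cell marker miR-486 was found in 2 cows. The 3 muscle miRNA ranged from 0 to 3865 CPM and from 0 to 1687 CPM, respectively. The part of these cells in the levels of miR-103 and miR-107 was not tested.

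MiR-103 was a moderately abundant miRNA of the milk sEVs and was found in 13 of the 14 cows. The counts of control cows 1 to 7 were 21, 1, 15, 28, 284, 6 and 6. Those of inulin cows 1 to 7 were 33, 68, 10, 0, 30, 95 and 34. Control cow 5 alone held 78.7% of the miR-103 counts of its group, whereas the highest inulin cow held 35.2%. Scaled to the total of each cow, the level in the control group was lowest in control cow 4 at 158 CPM, had a median of 240 CPM and was highest in control cow 5 at 684 CPM. In the inulin group it was lowest in cow 4 at 0 CPM, had a median of 286 CPM and was highest in cow 7 at 453 CPM. The groups overlapped over most of their range, and apart from control cow 5 and inulin cow 4 all cows lay between 158 and 453 CPM. Inulin cow 4 had a total of 14822 counts, at which a count of 0 allows up to 202 CPM by the limit of 3 counts. This limit is above the levels of control cow 4, control cow 6 and inulin cow 1. The Wilson upper bound, 259 CPM, is also above those of control cows 2 and 3. In control cow 2, the shallowest library, the level of 240 CPM rests on 1 count and has an interval from 42.4 to 1360 CPM.

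Control cows had 290 ± 179 CPM of miR-103 on average (SD, n = 7), and inulin cows had 275 ± 151 CPM (SD, n = 7). On the scale of log2(CPM + 10) the means were 8.08 and 7.60, a difference of -0.48 that other splits of the same cows often exceeded (two-sided exact permutation test, p = 0.754). Without inulin cow 4 the difference turned to 0.23 (exact permutation test, p = 0.496). The smallest p that this test can give for 7 against 7 cows is 0.000583.

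**Figure D1:**
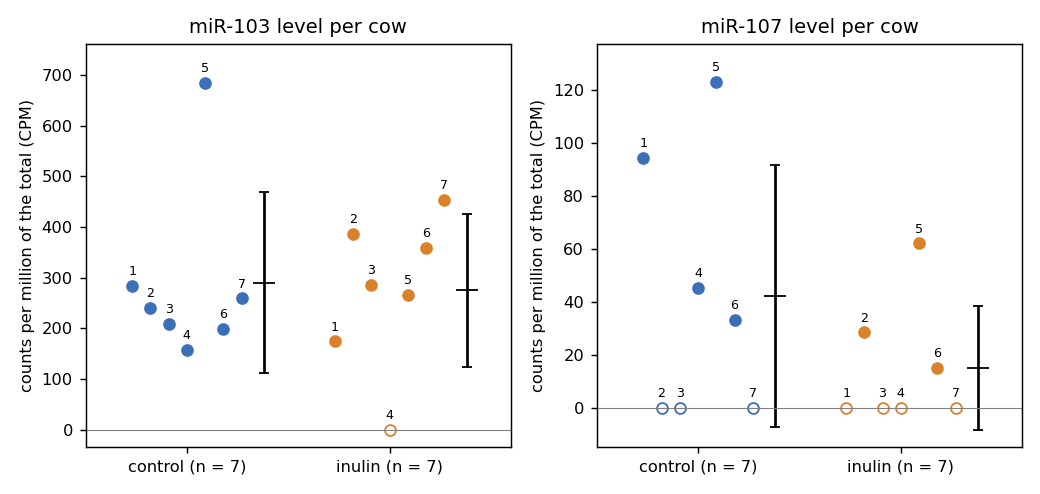
Level of miR-103 (left) and miR-107 (right) in CPM for each cow, numbered as in its group, with open points for cows with 0 counts and black bars for the mean ± SD of each group (n = 7). Control cow 5 stands at 684 CPM of miR-103 and 123 CPM of miR-107, and 7 cows have no miR-107.

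MiR-107 was scarce and was found in 7 of the 14 cows, 4 control cows and 3 inulin cows. The counts of control cows 1 to 7 were 7, 0, 0, 8, 51, 1 and 0. Those of inulin cows 1 to 7 were 0, 5, 0, 0, 7, 4 and 0. In 6 cows there were at least 3 counts, and 51 of the 67 counts among control cows came from control cow 5. The level in the control group was lowest at 0 CPM, had a median of 33.1 CPM and was highest in cow 5 at 123 CPM. In the inulin group the lowest and the median were both 0 CPM, and the highest level was 62.0 CPM in cow 5.

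The cows without miR-107 differ in what a count of 0 allows by the limit of 3 counts, which is lower than the Wilson upper bound. In inulin cow 1 a count of 0 allows up to 15.8 CPM (Wilson upper bound 20.2 CPM). Both are below the level of 6 of the 7 cows in which miR-107 was found. It allows up to 39.9 CPM in inulin cow 7 and up to 41.5 CPM in control cow 3. In control cow 7, inulin cow 4 and control cow 2 it allows up to 130, 202 and 720 CPM, all above the highest level measured in any cow. In these 3 libraries miR-107 was not detectable at this depth, which says nothing of its absence.

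Control cows had 42.2 ± 49.4 CPM of miR-107 on average (SD, n = 7), and inulin cows had 15.1 ± 23.4 CPM (SD, n = 7). The difference in log2(CPM + 10) was -0.80, and regrouping of the cows often gave one as large (two-sided exact permutation test, p = 0.319). With the counts of a group summed, miR-107 made up 84.1 CPM for control, with a lower bound of 66.3, and 18.4 CPM for inulin, with an upper bound of 29.9. Without control cow 5 the summed level was 42.0 CPM for control (interval 25.8 to 68.2), which overlaps the interval for inulin. Without inulin cow 5, which had the most counts of its group, that for inulin was 11.9 CPM (interval 6.26 to 22.6). All of these intervals count reads and leave out the spread between cows. Leaving out control cow 5 brought it to -0.45 in log2(CPM + 10), with p = 0.559 by the exact permutation test.

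Within a cow, miR-103 exceeded miR-107 throughout. It had more counts in 13 cows, and in inulin cow 4 both were at 0. The mean log2 ratio of miR-107 to miR-103, with 0.5 counts added to each, was -3.19 ± 1.84 (SD, n = 14). This differed from equal counts (two-sided exact sign-flip permutation test over cows, p = 0.000244). No smaller p was possible, since the log2 ratio of inulin cow 4 is 0.0 and flipping its sign changes nothing. Where both were found, miR-103 had from 3.0 counts per miR-107 count in control cow 1 to 23.8 in inulin cow 6.

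The balance of the paralogs was also compared by diet. Over all cows 83 of 714 counts of both were miR-107, which is 11.6% (interval 9.48 to 14.2). In the control group the share of miR-107 was highest in cow 1 at 25%, followed by 22.2% in cow 4, 15.2% in cow 5 and 14.3% in cow 6. In control cows 2, 3 and 7 it was 0%, out of 1, 15 and 6 counts of both. In the inulin group it was 18.9% in cow 5, 6.85% in cow 2 and 4.04% in cow 6. It was 0% in inulin cows 1, 3 and 7, out of 33, 10 and 34 counts, and inulin cow 4 has no share. Inulin cow 5 thus lay among the control cows, and the other inulin cows with a share were at or below 6.85%. Control cows 2, 3 and 7, at 0%, lay in that range too.

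Control cows had a mean share of 11% ± 10.9 (SD, n = 7), and inulin cows had 4.97% ± 7.39 (SD, n = 6). The difference was -5.99 percentage points, and other splits of the same cows often gave one as large (two-sided exact permutation test, p = 0.286, adjusted p = 0.425 over 4 tests). The log2 ratio differed by -1.22 between the groups (exact permutation test, p = 0.229, adjusted p = 0.425), and with 0.5 counts added it takes the value 0.0 in inulin cow 4, where neither miRNA had a count. Without inulin cow 4 the difference was -1.86 (exact permutation test, p = 0.0437, not adjusted). In the cows with 0 counts of miR-107 the log2 ratio is set by the number of miR-103 counts. That number depends on the level of miR-103 as well as on depth. Among the cows with at least 10 counts of both, the share differed by -10.6 percentage points (exact permutation test, p = 0.148) and the log2 ratio by -1.77 (exact permutation test, p = 0.114). With the counts of a group summed, miR-107 made up 15.7% (interval 12.5 to 19.4) of 428 counts in the control group and 5.59% (interval 3.47 to 8.89) of 286 counts in the inulin group. Without the cow with the most counts of its group these shares were 17.2% (interval 10.9 to 26.1) and 6.42% (interval 3.71 to 10.9). These 2 intervals meet at 10.9%. The intervals of the sums again cover counting error only.

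**Figure D2:**
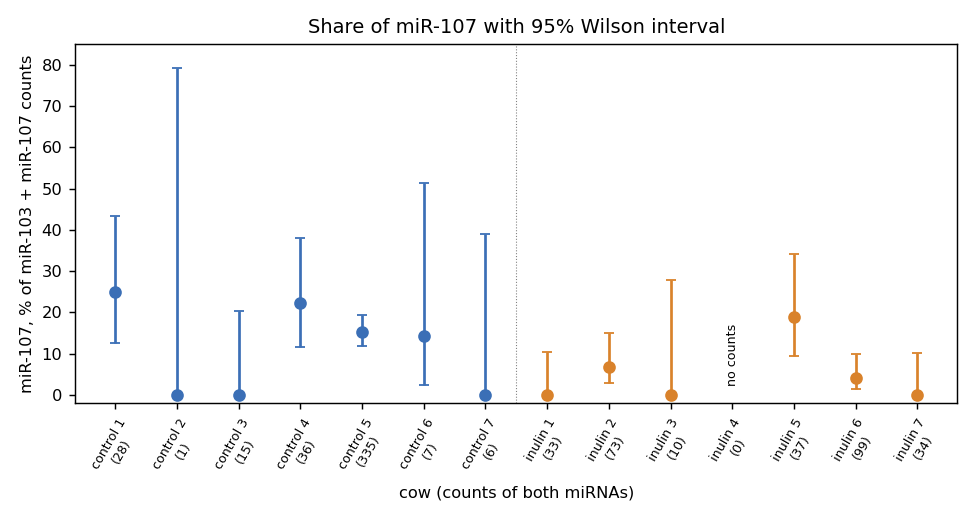
Share of miR-107 among the counts of miR-103 and miR-107 in each cow, in percent, with its 95% Wilson interval and the number of counts of both below each cow. The interval of control cow 5 (11.8 to 19.5%) lies above those of inulin cows 1, 6 and 7 and overlaps those of inulin cows 2, 3 and 5.

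Since depth sets what can be found of a scarce miRNA, both levels and the share were compared with the log10 of the total count. For miR-103, Pearson's r was 0.443 (permutation p = 0.106, adjusted p = 0.159) and Spearman's rho was 0.411 (permutation p = 0.147, adjusted p = 0.19) over 14 cows. For miR-107, r was 0.543 (permutation p = 0.0438, adjusted p = 0.131) and rho was 0.519 (permutation p = 0.0606, adjusted p = 0.182). For the share of miR-107, r was 0.344 (permutation p = 0.252, adjusted p = 0.252) and rho was 0.387 (permutation p = 0.19, adjusted p = 0.19) over 13 cows. Adjusted for the 3 relations, none passed. With the 2 cows of most extreme depth relative to the median removed, r became 0.53 for miR-103, 0.364 for miR-107 and 0.157 for the share, so that the relation of miR-107 rests in part on those cows. Spearman's rho of these cows was 0.273 for miR-103 (permutation p = 0.393), 0.306 for miR-107 (permutation p = 0.331) and 0.21 for the share (permutation p = 0.533). Among the 7 control cows alone r of miR-107 was 0.719 (exact permutation p = 0.0631), and among the 7 inulin cows r was 0.489 (exact permutation p = 0.267). The corresponding rho was 0.852 (exact permutation p = 0.0286, not adjusted) in control cows and 0.433 (exact permutation p = 0.343) in inulin cows. For miR-103 r was 0.411 (exact permutation p = 0.354, n = 7) and 0.723 (exact permutation p = 0.0792, n = 7), respectively, and rho was 0.179 (exact permutation p = 0.713) and 0.25 (exact permutation p = 0.595). For the share r was 0.602 (exact permutation p = 0.149, n = 7) and 0.195 (exact permutation p = 0.733, n = 6), while rho was 0.741 (exact permutation p = 0.0738) and 0.273 (exact permutation p = 0.617).

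**Figure D3:**
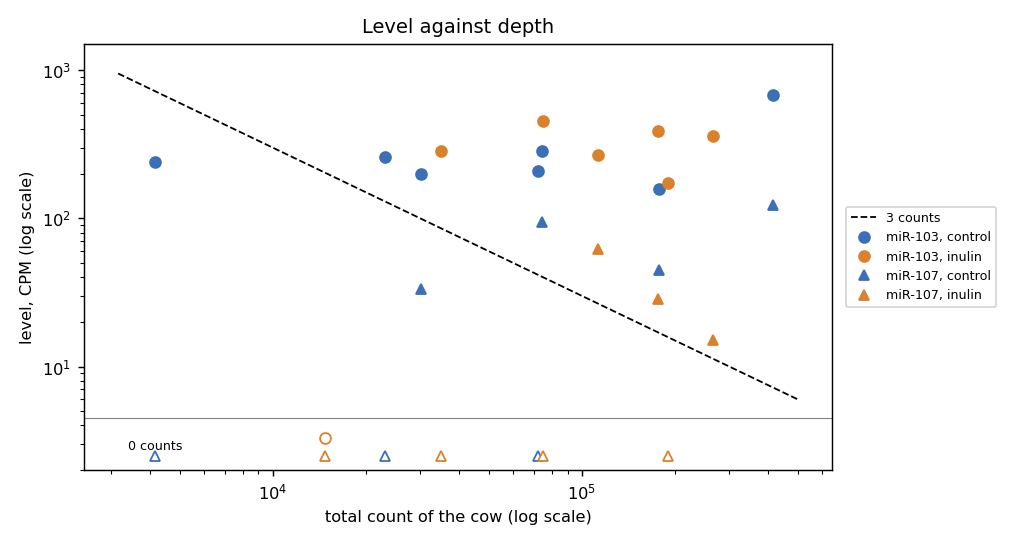
Level of miR-103 (circles) and miR-107 (triangles) in CPM against the total count of the cow, both on log scales, with the level that 3 counts give as a dashed line and cows at 0 counts as open points at the bottom. All miR-107 levels above 0 but that of control cow 6 lie above the line, and the deepest library, control cow 5 with 415020 counts, has the highest level of both.

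Ordered by mean CPM over the 14 cows, with 1 precursor for each mature name, miR-103 had rank 39 and miR-107 rank 97 of 268. In single cows the rank of miR-103 ranged from 25 in inulin cow 7 to 50 in control cow 4. Just above miR-103 were miR-6529a at 437 ± 453 CPM, miR-93 at 381 ± 276 CPM and miR-30e-5p at 311 ± 301 CPM (SD, n = 14 each). Just below were miR-92a at 275 ± 398 CPM, miR-660 at 271 ± 316 CPM and miR-760-3p at 270 ± 333 CPM (SD, n = 14 each). MiR-103, at 282 ± 159 CPM, varied less between cows than these neighbours in terms of its SD. None of the 6 differed from miR-103 in log2(CPM + 10) beyond the spread between cows (exact sign-flip permutation tests, p from 0.193 to 0.691, smallest adjusted p = 0.678), so the order within this stretch is not resolved.

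Of 8 names of seed-related miRNA (miR-15, miR-16 and their relatives) that were looked for, 5 were analysed. MiR-16a, a miRNA known to restrain cell proliferation, was found in all 14 cows, from 3445 to 18086 CPM with a mean of 7360 CPM. MiR-16b, its close relative, reached a mean of 471 CPM in 13 cows. MiR-103 came next, ahead of miR-107 with a mean of 28.6 CPM and of miR-15b with 27 CPM in 4 cows. MiR-15a was found in 2 cows and miR-424-5p in 1. Together miR-103 and miR-107 made up between 0% and 10.9% of the counts of the group in a cow, with the highest share in inulin cow 7 and the lowest in inulin cow 4. The group's signal in these vesicles was thus mostly miR-16a.

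**Figure D4:**
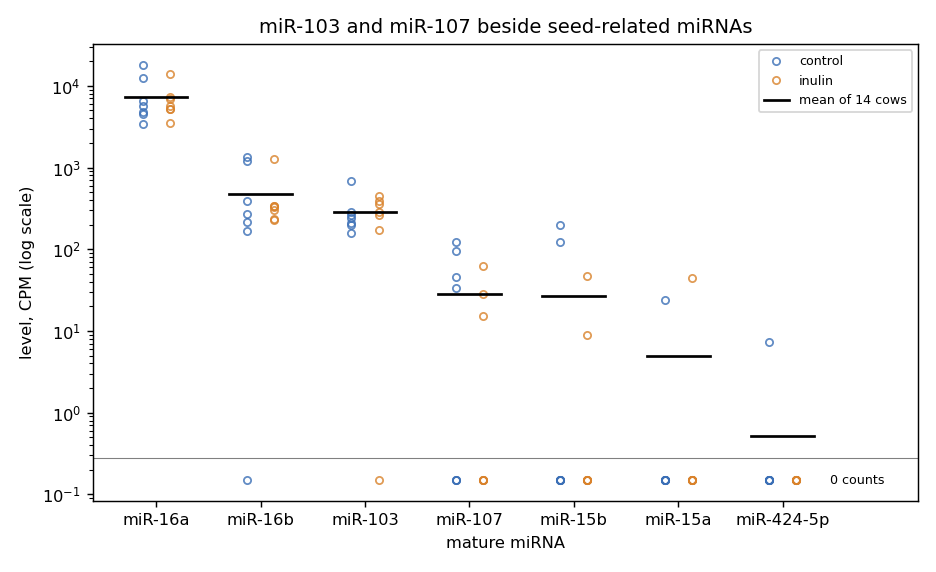
Level in CPM (log scale) of miR-103, miR-107 and the 5 analysed seed-related miRNA in each cow, ordered by the mean over 14 cows (black lines), with cows at 0 counts below the grey line. MiR-16a has a mean of 7360 CPM, miR-103 of 282 CPM and miR-107 of 28.6 CPM.

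Across the table, the groups were compared by edgeR's quasi-likelihood test for the 210 pairs whose counts summed to 10 or more. A pair was called if its log2 fold change exceeded 1 in size and its unadjusted P lay below 0.05. All 3 miR-103 and miR-107 pairs were tested and 0 of the 3 were called, the miR-103 pairs being 1 measurement. Of all tested pairs 9.05% were called, 2.86% higher and 6.19% lower with inulin (19 of 210, 6 and 13). Beside that share, 0 of 3 does not set the members apart from the other pairs. With the same rule DESeq2 called 4.29% and limma-voom 6.67% of the pairs, and again 0 of the 3. None had an unadjusted p under 0.05 in edgeR, DESeq2 or limma-voom (0 of 3 in each). For miR-103/mir-103-1 the edgeR log2 fold change of inulin over control was -0.06 ± 0.72 (SE, adjusted p = 0.987), and for miR-103/mir-103-2 the edgeR value was -0.09 ± 0.72 (SE, adjusted p = 0.985). These edgeR standard errors were derived from the fold change and the F value of the test, and are approximate. The 95% interval they give runs from -1.47 to 1.35 for mir-103-1. DESeq2, with a standard error of its own fit, gave -0.14 ± 0.52 (SE) and an interval from -1.16 to 0.89. A change of miR-103 within these limits could not be told from none. For miR-107/mir-107 edgeR gave -1.36 ± 1.18 (SE, adjusted p = 0.914), with an interval from -3.68 to 0.95. Over all 210 pairs 147 had a negative log2 fold change and the median was -0.40, so miR-103 lay 0.34 above the median and miR-107 lay below it, at -0.96 from it. With the let-7 pairs left out before scaling the median moved to -0.11, and miR-103 had 0.55 and miR-107 -0.83.

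The sign for miR-103 depended on single cows. It was positive without control cow 3 (0.29), control cow 5 (0.51), inulin cow 1 (0.02), inulin cow 2 (0.15) or inulin cow 4 (0.13). For miR-107 all such values stayed negative, from -2.37 without inulin cow 5 to -0.65 without control cow 5.

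**Figure D5:**
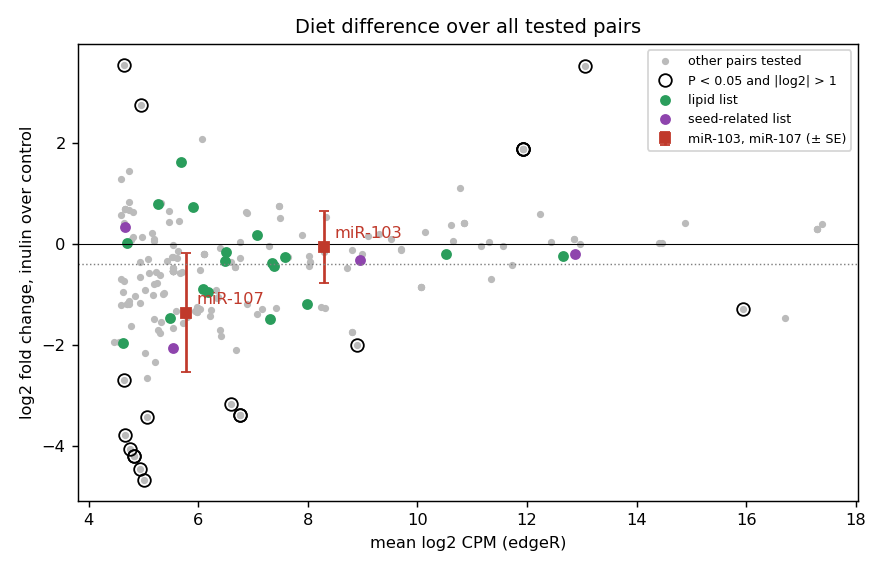
Log2 fold change of inulin over control against mean log2 CPM for the 210 tested pairs (edgeR), with the 19 called pairs circled, the lipid and seed-related lists coloured, and miR-103 and miR-107 in red with their standard errors. The dotted line is the median of all pairs, -0.40, and miR-103 at -0.06 and miR-107 at -1.36 are not among the circled pairs.

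Among the seed-related miRNA 4 of the 5 had enough counts to be tested. In edgeR 0 of the 4 were called higher and 0 lower, beside 2.86% and 6.19% of all tested pairs. Their median log2 fold change was -0.27 beside -0.40 over all pairs. MiR-16a had -0.21 (standard error 0.45) and miR-16b -0.32 (standard error 0.72). The largest difference among them was that of miR-15b, -2.07 (standard error 1.4), from 67 counts in 4 cows. None had an unadjusted p under 0.05.

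A list of other miRNA known from lipid or sterol metabolism held 26 names, of which 22 were analysed and 18 tested. Of these 18, 0 were called higher and 0 lower in edgeR, beside 2.86% and 6.19% of all tested pairs. None of them had an unadjusted p under 0.05. Their log2 fold changes were 5 positive and 13 negative, beside 63 and 147 over all tested pairs. Their median was -0.30, beside -0.40 over all tested pairs. MiR-26a and miR-26b, which act on genes of fatty acid and cholesterol metabolism, were the 2 found in all 14 cows. MiR-26a had 6796 ± 5551 CPM in control cows and 5634 ± 1612 CPM in inulin cows (SD, n = 7 each), a log2 fold change of -0.23 (standard error 0.47). MiR-26b had 1514 ± 634 CPM and 1288 ± 508 CPM (SD, n = 7 each), a log2 fold change of -0.20 (standard error 0.52). In both the cows of a group overlapped those of the other. The values of the remaining 16 tested miRNA ranged from -1.97 for miR-27a-3p, a miRNA that restrains fat cell formation, to 1.62 for miR-143, which promotes it. The former rests on 22 counts in 3 cows (standard error 1.16), the latter on 64 counts in 7 cows (standard error 1.19). MiR-122, the liver miRNA of cholesterol metabolism, had 9 counts in 2 inulin cows and was not tested. MiR-223 stands in this list as well as among the leukocyte markers. The list summed to a median of 7080 CPM for control cows and of 8472 CPM for inulin cows, whereas the means were in the opposite order, at 9679 ± 7012 CPM and 7965 ± 2100 CPM (SD, n = 7 each).

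The miRNA whose levels ordered the cows most like miR-103 were sought among 63 mature miRNA found in at least 10 cows. Spearman's rho with miR-103 in CPM over the 14 cows was highest for let-7g (0.71), followed by miR-29a (0.667), miR-30a-5p (0.64), let-7a-5p (0.618) and let-7f (0.574). Without control cow 5 these values were 0.637, 0.582, 0.549, 0.61 and 0.467. The highest was then let-7b at 0.681, which had 0.556 over the 14 cows, so the order depended on single cows. The let-7 miRNA repress growth genes, and miR-29a acts on collagen genes. The lowest rho was that of miR-423-5p, -0.701, a miRNA named here after its value was seen. Over the 63 the median was 0.169, and 38 were positive. All levels in a cow share 1 library and 1 total, so that a rise of let-7 in a cow lowers the shares of others, and the values are a description with no test. MiR-107 was found in 7 cows, too few for this comparison.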

How the data were processed

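MiRNA of milk sEVs were sequenced for 14 cows, 7 in each group,. The authors trimmed adapters, selected reads by length, controlled quality with Fastx_toolkit, annotated other RNAs with Rfam and used miRBase. They deposited the read counts from miRDeep2 for each miRNA/precursor without normalization. Quantifier settings are not given in the sources used here, and the submitters' processing notes name the build ARS-UCD1.2, so no positions from ARS-UCD2.0 are given. The deposited rpm columns are the same counts per 1000000 and differed from recomputed values by at most 0.005. Another unit listed by the authors is the length of the mature miRNA in nt, and the deposited total is the sum of the counts. Per-sample columns that could not be assigned to a cow numbered 0.

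Total counts ranged from 4165 to 415020. The main test was edgeR (version 4.0.16, R 4.3.3), glmQLFTest with TMM and Benjamini-Hochberg adjustment, on pairs with at least 10 counts and with library sizes over these pairs. The threshold of a call follows the rule stated in the methods of the study. Single values were compared with exact permutation tests on log2(CPM + 10), and correlations over all cows with 100000 permutations. Tables and tests were made with SciPy 1.17.1, pandas 2.3.3 and NumPy 2.4.6 in Python 3.11.15, and plots with matplotlib 3.10.9. Alternatives were DESeq2 (1.42.0), limma-voom (limma 3.58.1), other scalings, filters and pseudocounts, 1 precursor per mature miRNA, a block for the number of the cow, and each cow left out. The fits were tested on simulated data. Named miRNA were the members, those of both lists found in all cows or called, the 5 most like miR-103 and its 3 neighbours on each side in mean level; others were named after their values were seen. Members and lists were chosen with earlier results of these data known. Cows were grouped by their labels.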

Additional observations from a re-analysis of the deposited data

Results flagged for a closer look

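An outlying cow was sought with Dixon's ratio in 16 groups of 6 or 7 values. For normally distributed values chance would pick about 0.8, or 1 in 20. Counts and levels with zeros need not be so distributed, and unscaled counts also depend on depth. The 0.8 is thus no measure of chance for these groups. Dixon's ratio picked 6, which are not independent since they repeat the same counts. In 4 of them the cow was control cow 5. Its miR-103 level was 684 CPM, with the next control cow at 283 CPM, and on the scale of log2(CPM + 10) it was 9.44 against 8.19. Its miR-103 count was 284 against 28 and its miR-107 count 51 against 8. This library had a total of 415020 counts, the highest of all cows, and the part of depth in its level was not tested. Inulin cow 4 had 0 counts of miR-103, which is 3.32 in log2(CPM + 10), with the next inulin cow at 7.52. Its total was 14822, the second lowest of all cows. In inulin cow 5, miR-107 made up 18.9% of the counts of both miRNA, with the next inulin cow at 6.85%.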

How the results depend on the processing

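The excess of miR-103 over miR-107 within cows kept its direction and its side of 0.05 under 18 of 18 alternatives, with log2 ratios from -3.73 to -2.76, and from -3.44 to -2.97 with each cow left out. The level, the share and the edgeR fold change of miR-107 stayed lower with inulin and short of the threshold under all alternatives run. Leaving out single cows put the fold change between -2.37 and -0.65, the level difference between -1.12 and -0.452, the share difference between -8.78 and -3.65 percentage points and the difference in log2 ratio between -1.86 and -0.838, where the value without inulin cow 4 passed 0.05. With filterByExpr, miR-107 was not tested. The edgeR value of miR-103 turned positive with no filter (0.15), with filterByExpr (0.06), with 1 precursor per mature miRNA (0.06), without let-7 pairs (0.55) and in the cows with totals of at least 20000 (0.17), and ranged from -0.18 to 0.51 with each cow left out. Its level difference was 0.213 in the cows with totals of at least 20000, a minimum chosen after seeing the data, and between -0.691 and 0.231 with each cow left out. None of these passed the threshold, and the cause was not tested. The number of called pairs was 19 and became 9 with DESeq2, 75 with no filter, 3 with filterByExpr and 7 with the replicate block, and it lay between 14 and 22 with each cow left out. No called pair in edgeR had an adjusted p under 0.05 (0 of 210, smallest adjusted p = 0.274 from edgeR, 19 at an unadjusted p under 0.05).

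The correlation with depth was 0.521 for miR-107 with a pseudocount of 50 CPM (permutation p = 0.0551) and, with the 2 cows of most extreme depth removed, 0.364 for miR-107 (permutation p = 0.242) and 0.53 for miR-103 (permutation p = 0.0482). The study divided the cows between the groups at random and describes no pairing by number. In their deviations 2 of 7 same-numbered pairs correlated above 0.1, and 0 of 7 matched best with their own number. So few pairs cannot decide by themselves whether animals were paired. With the replicate block the edgeR values were -0.16 for miR-103 and -1.73 for miR-107, and the level differences were unchanged at -0.481 and -0.796 (exact sign-flip permutation p = 0.625 and 0.312). The share differed by -4.12 (exact p = 0.625) and the log2 ratio by -1.22 (exact p = 0.219). In the cows with 0 counts of miR-107, depth limits what could have been found to between 15.8 and 720 CPM. The summed levels without the cow with the most counts of its group were also chosen after seeing the data.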
